A study of Homo sapiens with 12 samples.

Results

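The genes described here are 40 listed genes of the cornified envelope and of suprabasal squamous differentiation, read in an esophageal squamous cell carcinoma line, OE21, and a Barrett's adenocarcinoma line, OE33. A gene counted as measured when a probe named for it was detected (detection p under 0.01) on at least 3 of 12 arrays. Of the 40 genes, 39 had a probe and 34 were measured, among 12322 measured genes of 20045 with a probe. Filaggrin (FLG), cornulin (CRNN), the ammonium transporter RHCG and the raft proteolipid MAL were detected on 0 arrays, the desmosomal cadherin DSG1 on 1, and no probe was named for the protease inhibitor SPINK5. The members nearest to the threshold were TMPRSS11D and TGM5, detected on 3 arrays, and involucrin (IVL), on 4.

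Each line was transfected with siRNA against the transcription factor STAT3 or with Silencer negative control siRNA, which gave 4 groups of 3 arrays, and the design text calls the replicates biologically independent experiments. The STAT3 siRNA, a pool of 4 sequences, was given at 100 nM in 2 transfections, and expression was read 72 h after the first. OE21 received siPORT NeoFX and OE33 DharmaFECT, so line and reagent cannot be told apart, and with 1 line per tumour type neither can line and type. Of 7 squamous markers with a probe, 7 were detected on all OE21 control arrays and 3, KRT15, DSC3 and TRIM29, on all OE33 control arrays. KRT5, KRT14 and DSG3 were detected on 0 OE33 arrays and SOX2 on 1. In control cells the log2 difference, OE33 minus OE21, was -0.52 for KRT15 and 0.73 for TRIM29 (adjusted p = 0.66 and 0.13 by limma). For DSC3 that difference was -3.05 (adjusted p = 3.37e-06 by limma). Of 15 columnar markers with a probe, 6 were detected on all OE33 control arrays, of which KRT8 and CDX2 were detected on 0 OE21 arrays and KRT18, KRT19, EPCAM and AGR2 on all 12 arrays, while KRT20, CDH17, VIL1, CDX1, TFF3, MUC13 and LGALS4 were detected on 0 arrays of either line. The second OE33 control array stood apart from its line, with a mean correlation of 0.976 across probes where the other OE33 arrays had 0.984, and where leaving it out ended a member's call or moved a called difference by over 1.5 times, both values are given. Fibroblast, leukocyte and endothelial lists had 3 of 6, 2 of 4 and 2 of 3 probed markers detected on 0 arrays, with CD14 detected on 12. The endothelial marker VWF was detected on all 6 OE21 arrays and 0 OE33 arrays and was at least 4.29-fold lower in OE33 control cells (adjusted p = 9.51e-06 by limma), and its part in the members' differences was not tested. STAT3 itself read 9.23, 8.90 and 9.24 on the OE21 control arrays and 6.76, 6.77 and 7.47 on the OE21 siRNA arrays, and 9.04, 10.26 and 9.36 on the OE33 control arrays and 9.10, 8.87 and 9.05 on the OE33 siRNA arrays. The siRNA arrays lay below the control arrays in OE21 (log2 difference -2.12, SE 0.23, adjusted p = 0.278 by limma), and the groups overlapped in OE33 (-0.55, SE 0.30, adjusted p = 0.991), where the difference was -0.19 (adjusted p = 0.962) without the second control array. The OE21 difference passed in the fit of all 12 arrays (adjusted p = 0.0279) and with array weights (-2.29, adjusted p = 0.0264).

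The cornified envelope is the insoluble protein shell that replaces the plasma membrane of keratinocytes at the end of their life. Precursor proteins made in suprabasal layers are laid under the membrane, cross-linked to each other by transglutaminases and coated with lipids, while protease inhibitors and cell surface proteins govern how the dead cells cohere and shed. Healthy esophagus is lined by a stratified squamous epithelium that makes many of these precursors without a full horny layer, and columnar epithelium of the Barrett type does not build an envelope. Many precursor genes lie side by side in the epidermal differentiation complex of chromosome 1, and AP-1 transcription factors are known regulators of involucrin and of several small proline-rich (SPRR) genes.

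The 250 bases before the gene start are shown for 8 members, 5 neighbours of the differentiation complex and the 3 neighbouring secreted-protein genes of chromosome 19, because each group lies together on its chromosome and its members differed in the size of their change between the lines. Sequences are RefSeq's on GRCh38.p14, 5′ to 3′ on the gene's strand. They lie at chr1:152908296-152908545 for IVL, chr1:152983831-152984080 for SPRR1A, chr1:153001499-153001748 for SPRR3 and chr1:153030953-153031202 for SPRR1B, all on the plus strand, and on the minus strand at chr1:153057513-153057762 for SPRR2A, chr19:35490465-35490714 for KRTDAP, chr19:35528312-35528561 for SBSN and chr19:35510471-35510720 for DMKN. Capitals mark the AP-1 motif TGANTCA, the TATA box TATAAA and, in DMKN alone among those shown, the STAT motif TTCNNNGAA.
IVL: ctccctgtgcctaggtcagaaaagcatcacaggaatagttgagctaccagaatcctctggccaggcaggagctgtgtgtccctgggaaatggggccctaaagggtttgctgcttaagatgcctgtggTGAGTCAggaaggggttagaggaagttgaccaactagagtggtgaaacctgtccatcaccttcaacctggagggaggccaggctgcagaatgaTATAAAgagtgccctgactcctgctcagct
SPRR1A: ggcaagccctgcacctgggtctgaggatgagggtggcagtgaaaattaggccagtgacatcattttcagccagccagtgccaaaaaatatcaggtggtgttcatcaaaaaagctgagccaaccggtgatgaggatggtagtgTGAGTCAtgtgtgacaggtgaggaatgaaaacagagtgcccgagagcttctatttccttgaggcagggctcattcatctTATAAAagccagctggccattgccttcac
SPRR3: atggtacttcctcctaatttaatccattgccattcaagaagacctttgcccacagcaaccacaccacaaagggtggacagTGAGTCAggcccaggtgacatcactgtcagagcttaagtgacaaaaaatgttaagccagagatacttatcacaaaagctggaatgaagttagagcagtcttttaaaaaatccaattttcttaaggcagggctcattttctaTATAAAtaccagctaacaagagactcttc
SPRR1B: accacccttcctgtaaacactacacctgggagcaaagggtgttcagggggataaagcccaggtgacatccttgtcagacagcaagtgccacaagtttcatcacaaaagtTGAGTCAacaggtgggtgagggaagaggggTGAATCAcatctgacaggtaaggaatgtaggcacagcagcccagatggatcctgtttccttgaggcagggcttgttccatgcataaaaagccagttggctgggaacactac
SPRR2A: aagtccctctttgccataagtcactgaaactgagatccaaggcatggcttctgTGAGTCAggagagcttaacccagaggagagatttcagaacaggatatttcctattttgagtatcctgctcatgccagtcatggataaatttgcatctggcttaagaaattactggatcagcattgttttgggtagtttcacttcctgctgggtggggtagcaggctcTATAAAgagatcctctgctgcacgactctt
KRTDAP: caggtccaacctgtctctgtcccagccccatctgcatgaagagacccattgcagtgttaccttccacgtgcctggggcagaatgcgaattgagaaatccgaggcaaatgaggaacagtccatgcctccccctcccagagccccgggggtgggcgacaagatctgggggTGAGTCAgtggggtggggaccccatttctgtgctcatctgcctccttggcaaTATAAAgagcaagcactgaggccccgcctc
SBSN: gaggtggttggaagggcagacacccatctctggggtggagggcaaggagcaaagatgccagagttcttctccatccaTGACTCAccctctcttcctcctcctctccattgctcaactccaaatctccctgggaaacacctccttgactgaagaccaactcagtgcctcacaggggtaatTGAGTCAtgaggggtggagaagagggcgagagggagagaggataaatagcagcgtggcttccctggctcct
DMKN: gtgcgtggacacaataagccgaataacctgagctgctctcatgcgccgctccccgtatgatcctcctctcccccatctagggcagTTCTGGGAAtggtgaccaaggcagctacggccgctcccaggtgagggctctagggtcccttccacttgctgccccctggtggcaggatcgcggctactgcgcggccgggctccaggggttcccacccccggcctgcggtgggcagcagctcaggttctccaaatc

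A promoter was at hand for 30 of the 40 members, and each motif was searched on both strands. The AP-1 motif was found in 12 of these 30, namely IVL, SPRR1A, SPRR1B, SPRR2A, SPRR3, FLG, CRNN, SCEL, KRTDAP, SBSN, ECM1 and EMP1, and in 6.6% of 27305 promoters of all genes. TATAAA was found in 12 of the 30 and in 11.1% of all promoters, and both motifs together in 8 of the 30 and in 1.11% of all. The STAT motif was found in DMKN, ECM1 and EMP1 and in 6.78% of all promoters. In ECM1 and EMP1 a STAT match shared bases with an AP-1 match. Among members compared between the lines, the AP-1 motif stood in 7 of 16 that were lower in OE33, in 2 of 3 that were higher and in 1 of 6 that passed in neither direction. A match is a description of these letters and does not show binding.

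Most measured envelope and differentiation genes were lower in OE33 than in OE21. In control cells 21 of the 34 were lower in OE33 and 5 were higher (limma, Benjamini-Hochberg adjusted p under 0.05), where 24.2% of all 12322 genes tested were lower and 25% higher. The median log2 difference, OE33 minus OE21, was -1.69 over the 34 members and 0.01 over all genes. It was -1.60 with the 11 members that OE33 control arrays did not detect placed at their bound. A member detected in OE21 alone could pass the filter only by being high there, so these counts describe the measured members and are no test of the list. In OE21, 28 of the 34 were detected on all 3 control arrays and 0 were undetected, while in OE33 17 were detected on all 3, 6 on 1 or 2 and 11 on none. In bulk RNA, fewer cells making a transcript and less transcript per cell cannot be told apart.

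**Figure D1:**
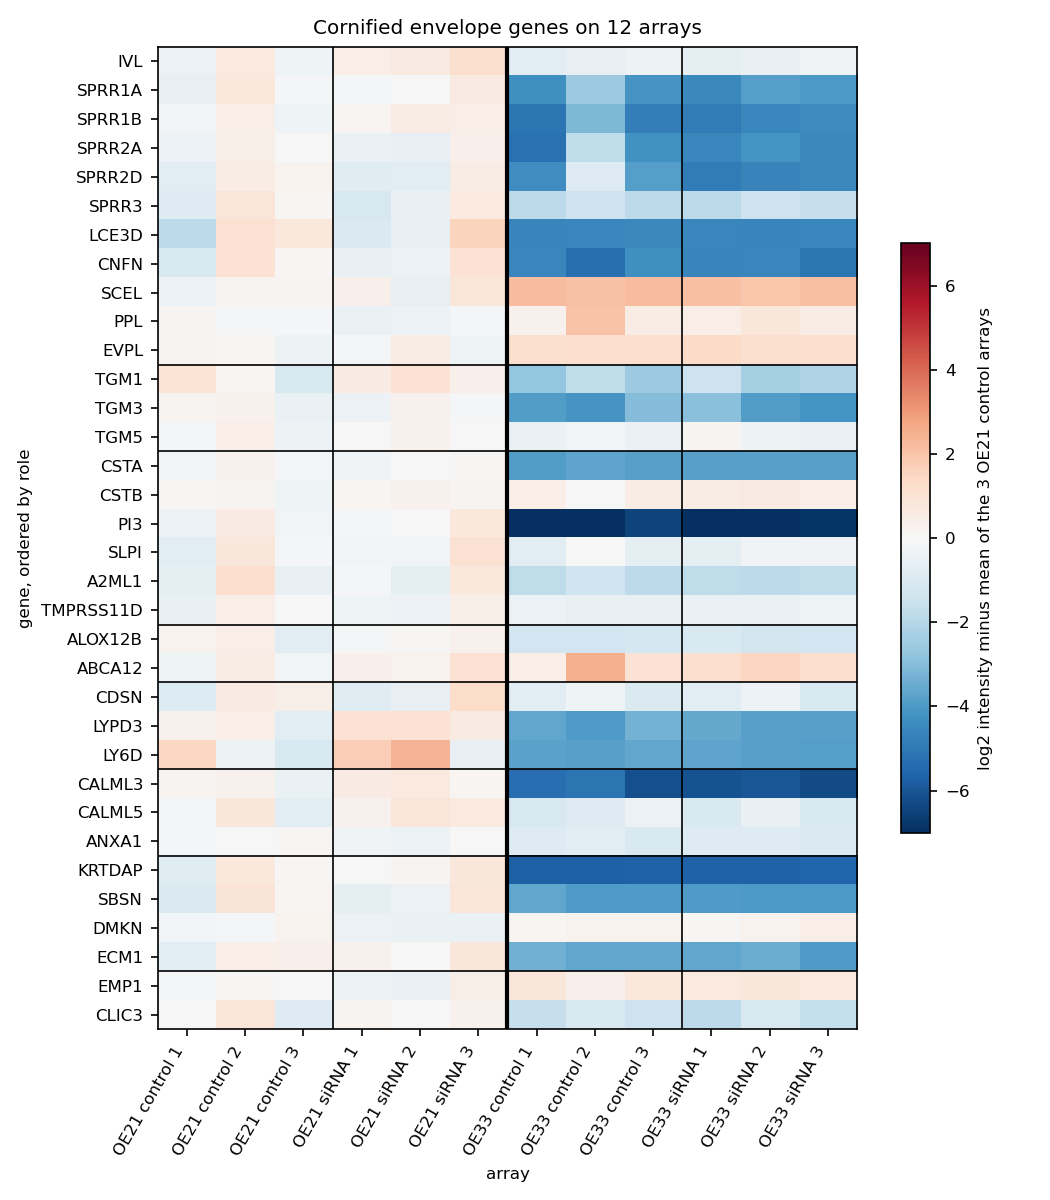
Level of the 34 measured members (rows, grouped by role) on each of the 12 arrays (columns, grouped by line and siRNA), as log2 intensity minus the gene's mean over the 3 OE21 control arrays, with blue for lower and red for higher. The 6 OE33 columns are blue in most rows, deepest for PI3, and red for SCEL, ABCA12, EVPL, PPL and EMP1.

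Levels below are log2 intensities after background correction and quantile normalisation, on which the lowest detected signal lay between 4.48 and 4.59, and values are given for replicates 1, 2 and 3 in order. They compare arrays for 1 probe and do not rank genes against each other. Log2 differences are OE33 minus OE21, with their standard error (SE).

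Among the precursors, the small proline-rich proteins, cross-bridging subunits of the envelope, were detected in both lines and fell from OE21 to OE33. SPRR1A read 12.02, 13.32 and 12.46 on the OE21 control arrays and 12.52, 12.60 and 13.21 on the OE21 siRNA arrays. It read 8.29, 10.06 and 8.45 on the OE33 control arrays and 8.10, 8.72 and 8.58 on the OE33 siRNA arrays, so every OE33 array lay below every OE21 array, with a difference of -3.67 (SE 0.45, adjusted p = 3.19e-05) in control cells. Its neighbour SPRR1B showed the same order, at 10.90, 11.52 and 10.78 on the OE21 control arrays and 11.21, 11.57 and 11.51 on the OE21 siRNA arrays. In OE33 its levels were 5.96, 7.92 and 6.22 on the OE33 control arrays and 6.17, 6.52 and 6.65 on the OE33 siRNA arrays, a difference of -4.36 (SE 0.41, adjusted p = 3.85e-06), or -4.98 (adjusted p = 7.14e-08) without the second OE33 control array. SPRR3, the esophageal member of the family, differed less, by -1.71 (SE 0.45, adjusted p = 0.00812). Its levels were 8.94, 10.68 and 9.92 on the OE21 control arrays and 8.74, 9.35 and 10.54 on the OE21 siRNA arrays. They were 8.01, 8.39 and 8.01 on the OE33 control arrays and 7.96, 8.41 and 8.25 on the OE33 siRNA arrays, so the lowest OE21 array was 8.74 and the highest OE33 array 8.41.

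SPRR2A and SPRR2D carried the same direction but not the same evenness. In OE21, SPRR2D read 9.70, 11.06 and 10.78 in control cells and 9.67, 9.80 and 11.03 in siRNA cells. In OE33 it read 6.15, 9.63 and 6.64 in control cells and 5.62, 5.83 and 5.97 in siRNA cells. The second OE33 control array stood 3.00 log2 units above the highest of the other 5 OE33 arrays and still just below the lowest OE21 array. The difference in control cells was -3.04 (SE 0.74, adjusted p = 0.00481) with that array and -4.12 (adjusted p = 3.47e-05) without it, or -2.38 (adjusted p = 0.0216) without the first OE33 control array. SPRR2A gave -3.75 (SE 0.66, adjusted p = 0.000535), -4.74 (adjusted p = 1.92e-06) without the second array and -3.00 (adjusted p = 0.0015) without the first. SPRR2 copies are nearly identical in sequence, so a probe named for 1 copy may read others.

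Other envelope precursors were undetected or dim in OE33. LCE3D, a late cornified envelope protein, read 6.94, 9.87 and 9.55 on the OE21 control arrays and 7.76, 8.22 and 10.34 on the OE21 siRNA arrays. It was detected on 0 of 6 OE33 arrays and was at least 19.6-fold lower there in control cells (adjusted p = 0.000252); the fitted difference was -4.57, and -5.50 without the first OE21 control array. Cornifelin (CNFN), an envelope component, read 9.09, 11.24 and 10.32 on the OE21 control arrays and 9.69, 9.80 and 11.24 on the OE21 siRNA arrays. Its OE33 levels, 5.68, 4.93 and 5.93 in control cells and 5.59, 5.67 and 5.09 in siRNA cells, were detected on 2 of 3 control and 3 of 3 siRNA arrays, close to the lowest detected signal, and the difference was -4.71 (SE 0.52, adjusted p = 1.48e-05). Involucrin, the early scaffold of the envelope, was dim in both lines. It read 4.61, 5.73 and 4.74 on the OE21 control arrays and 5.49, 5.67 and 6.14 on the OE21 siRNA arrays, and was detected on 1 control array, on all 3 siRNA arrays and on 0 OE33 arrays. The lines' difference in IVL did not pass in control cells (adjusted p = 0.116) and passed in siRNA cells, where OE21 was at least 2.21-fold higher (adjusted p = 0.00323). Without the first OE21 control array it passed in control cells too (adjusted p = 0.0493).

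Of the precursors, SCEL, EVPL and PPL took the other direction. Sciellin (SCEL), an envelope precursor, read 4.80, 5.36 and 5.40 on the OE21 control arrays and 5.56, 4.59 and 6.01 on the OE21 siRNA arrays. It read 7.40, 7.24 and 7.42 on the OE33 control arrays and 7.30, 7.15 and 7.29 on the OE33 siRNA arrays, so every OE33 array exceeded every OE21 array, by 2.17 (SE 0.29, adjusted p = 7.64e-05) in control cells. A second SCEL probe gave 1.77 (SE 0.32). Envoplakin (EVPL), a plakin that ties keratin filaments to the envelope, was higher in OE33 by 1.17 (SE 0.21, adjusted p = 0.000595), with OE21 arrays at 7.08 to 7.92 and OE33 arrays at 8.52 to 8.76. Periplakin (PPL), its partner, read 8.08, 7.76 and 7.78 on the OE21 control arrays and 7.39, 7.45 and 7.76 on the OE21 siRNA arrays. It read 8.18, 9.89 and 8.40 on the OE33 control arrays and 8.36, 8.68 and 8.40 on the OE33 siRNA arrays, again without overlap, at a difference of 0.95 (SE 0.35, adjusted p = 0.04). The PPL call ended on leaving out any of 8 of the 12 arrays, and without the second OE33 control array the difference was 0.42 (adjusted p = 0.0681).

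**Figure D2:**
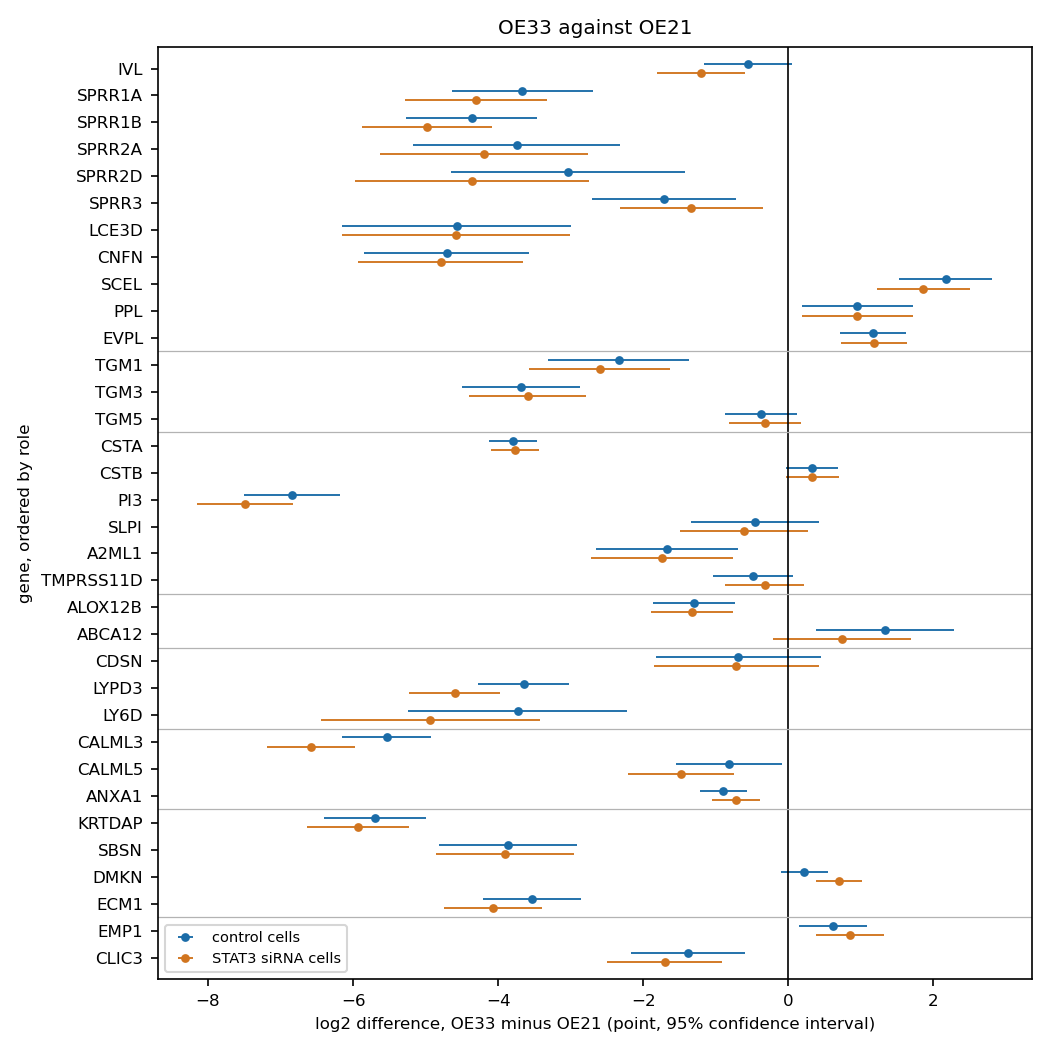
Log2 difference, OE33 minus OE21, of each measured member (rows) in control cells and in STAT3 siRNA cells, with bars for the 95% confidence interval. Points left of 0 are lower in OE33. For a member detected on 0 OE33 arrays the fitted point is drawn, although its size rests on OE33 signals at or near background. PI3 lies farthest left (-6.84 in control cells) and SCEL farthest right (2.17).

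Of the enzymes that cross-link the envelope, 2 of 3 transglutaminases were lower in OE33. TGM1, the membrane-bound enzyme, read 8.06, 7.24 and 5.99 on the OE21 control arrays and 7.68, 8.11 and 7.46 on the OE21 siRNA arrays. In OE33 it was detected on 1 control and 1 siRNA array, and the difference was -2.34 (SE 0.45, adjusted p = 0.000997). TGM3, the epidermal enzyme, differed by -3.68 (SE 0.37, adjusted p = 6.51e-06), with OE21 arrays between 8.06 and 8.87 and OE33 arrays between 4.38 and 5.64. In OE33 it too was detected on 1 control and 1 siRNA array. TGM5 was detected on 1 control and 2 siRNA arrays of OE21 and on 0 OE33 arrays, and passed in neither comparison.

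Protease inhibitors were split. Elafin (PI3), an elastase inhibitor that is itself cross-linked into the envelope, was bright in OE21. It read 11.34, 12.33 and 11.57 on the OE21 control arrays and 11.69, 11.71 and 12.47 on the OE21 siRNA arrays. It read 4.79, 4.67 and 5.25 on the OE33 control arrays and 4.16, 4.37 and 4.87 on the OE33 siRNA arrays, where 1 control array and 0 siRNA arrays detected it. The fitted difference in control cells was -6.84 (SE 0.30, adjusted p = 5.03e-09), and its size rests on OE33 signals at or near background. Cystatin A (CSTA), a cysteine protease inhibitor found in the envelope, read 7.87 to 8.36 in OE21, was detected on 0 OE33 arrays and was at least 12.1-fold lower there (adjusted p = 2.04e-09). Its paralog cystatin B (CSTB), a widely expressed inhibitor, was high in both lines, at 12.66 ± 0.24 (SD, n = 3) in OE21 and 12.99 ± 0.26 (SD, n = 3) in OE33 control cells, and passed in neither direction (adjusted p = 0.124). It passed as higher in OE33 without the second OE33 control array (0.48, adjusted p = 0.0245) and with array weights (0.49, adjusted p = 0.00745). SLPI, the secretory leukocyte protease inhibitor, with 2 protein-coding genes between it and PI3, was also detected on every array of both lines and did not pass (-0.46, SE 0.40, adjusted p = 0.378), but passed as lower in OE33 with array weights (-0.82, adjusted p = 0.0302). A2ML1, a broad protease inhibitor of the macroglobulin family, was at least 2.82-fold lower in OE33 (adjusted p = 0.00863), with a fitted difference of -1.67, and -1.07 without the second OE21 control array. The protease TMPRSS11D was at the edge of detection and did not pass (adjusted p = 0.131). It passed as lower in OE33 without the first OE21 control array (adjusted p = 0.0198) and with array weights (adjusted p = 0.00967).

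The 2 genes of barrier lipid handling differed in opposite directions. ALOX12B, a lipoxygenase acting on the lipids bound to the envelope, was at least 2.03-fold lower in OE33 (adjusted p = 0.00133), being detected on 5 of 6 OE21 arrays and 0 OE33 arrays. ABCA12, the lipid transporter of lamellar granules, read 4.29, 5.11 and 4.43 on the OE21 control arrays and 4.99, 4.86 and 5.62 on the OE21 siRNA arrays. It read 5.06, 7.14 and 5.64 on the OE33 control arrays and 5.76, 6.13 and 5.81 on the OE33 siRNA arrays, and the control groups overlapped although the difference passed at 1.33 (SE 0.43, adjusted p = 0.0231). Without the second OE33 control array, at 7.14, the difference was 0.74 and did not pass (adjusted p = 0.0642); it did not pass either without the first (1.17, adjusted p = 0.0735) or the third (1.24, adjusted p = 0.0669) OE21 control array.

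Of 3 measured surface proteins, 2 were lower in OE33 and 1 did not pass. LYPD3, a GPI-anchored protein of suprabasal keratinocytes, read 9.47, 9.67 and 8.44 on the OE21 control arrays and 10.19, 10.22 and 9.80 on the OE21 siRNA arrays. It read 5.57, 5.20 and 5.86 on the OE33 control arrays and 5.62, 5.40 and 5.38 on the OE33 siRNA arrays, a difference of -3.65 (SE 0.29, adjusted p = 7.21e-07). LY6D, another GPI-anchored protein, was detected on every OE21 array and 0 OE33 arrays and was at least 11.4-fold lower in OE33 control cells (adjusted p = 0.000819). Its fitted difference was -3.73, and -3.01 without the first OE21 control array. Corneodesmosin (CDSN), which holds corneocytes together, was dim and did not pass (-0.69, SE 0.52, adjusted p = 0.298), but passed as lower with array weights (-1.19, adjusted p = 0.0156).

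Calcium-binding members differed in size. CALML3, a calmodulin-like protein of epithelia, read 10.64, 10.74 and 9.99 on the OE21 control arrays and 11.04, 11.15 and 10.58 on the OE21 siRNA arrays. It was detected on 1 OE33 array, a control array, and the fitted difference of -5.54 (SE 0.28, adjusted p = 1.52e-08) likewise rests on OE33 signals at or near background. Its neighbour on chromosome 10, CALML5, a calmodulin-like protein of differentiating keratinocytes, was detected on every OE21 array and 0 OE33 arrays. It did not pass in control cells (adjusted p = 0.0614), and passed there without the third OE21 control array (adjusted p = 0.00978) or the third OE33 control array (adjusted p = 0.0441). In siRNA cells it was at least 2.52-fold lower in OE33 (adjusted p = 0.00287). Annexin A1 (ANXA1), a phospholipid-binding protein, was bright in both lines, at 13.38 ± 0.10 (SD, n = 3) and 12.49 ± 0.18 (SD, n = 3) in control cells, and was lower in OE33, at a difference of -0.90 (SE 0.15, adjusted p = 0.000397).

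The 3 neighbouring secreted-protein genes of chromosome 19, KRTDAP, DMKN and SBSN, with no other protein-coding gene between them, did not behave alike. KRTDAP, keratinocyte differentiation-associated protein, read 9.27, 10.86 and 10.16 on the OE21 control arrays and 10.05, 10.28 and 10.88 on the OE21 siRNA arrays. It was detected on 0 OE33 arrays and was at least 48.6-fold lower there (adjusted p = 4.2e-08). Suprabasin (SBSN) read 7.20, 9.07 and 8.30 on the OE21 control arrays and 7.54, 7.77 and 9.02 on the OE21 siRNA arrays, was detected on 0 OE33 arrays and was at least 12.9-fold lower (adjusted p = 1.71e-05). Dermokine (DMKN), encoded between them, read 9.45, 9.55 and 9.84 on the OE21 control arrays and 9.23, 9.17 and 9.13 on the OE21 siRNA arrays. It read 9.77, 9.86 and 9.89 on the OE33 control arrays and 9.68, 9.87 and 10.07 on the OE33 siRNA arrays, so it was detected on every array of both lines. The line difference in DMKN did not pass in control cells (0.22, SE 0.15, adjusted p = 0.234) and passed in siRNA cells as higher in OE33 (0.70, SE 0.15, adjusted p = 0.00187). Of 2 other DMKN probes, 1 passed in control cells (0.54, adjusted p = 0.01) and 1 did not (0.33, adjusted p = 0.0686). ECM1, an extracellular matrix protein, fell by 3.54 on the log2 scale (adjusted p = 1.99e-06) at its brighter probe, and a second probe fell by 1.25 (adjusted p = 0.0048).

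Of the 2 measured membrane proteins, CLIC3, an intracellular chloride channel, was lower in OE33, at a difference of -1.39 (SE 0.36, adjusted p = 0.0072). EMP1, a tetraspan protein, was higher, at 11.34 ± 0.10 (SD, n = 3) in OE21 and 11.96 ± 0.23 (SD, n = 3) in OE33 control cells (0.62, SE 0.21, adjusted p = 0.0313). The EMP1 call ended without any of 4 arrays, the first or the third control array of OE21 (0.56 and 0.62, adjusted p = 0.0836 and 0.0675) or of OE33 (0.54 and 0.57, adjusted p = 0.0968 and 0.0875).

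The control groups did not overlap for 25 of the 34 members, 21 of them below and 4 above in OE33, where 27.4% of all genes lay below and 27.9% above. The 9 members of the chromosome 1 complex (FLG, CRNN, LCE3D, IVL, SPRR1A, SPRR3, SPRR1B, SPRR2D and SPRR2A), which span 34 protein-coding genes, gave 7 measured genes, of which 6 were lower in OE33 and 0 higher. Of the other 27 measured members, 15 were lower, 5 higher and 7 passed in neither direction. Among all genes tested, 24.2% were called lower and 25% higher. LCE3D and IVL were detected on 0 OE33 arrays and so passed the filter only through OE21. Outside the complex the same held for TGM5, CSTA, A2ML1, TMPRSS11D, ALOX12B, LY6D, CALML5, KRTDAP and SBSN. PI3, CALML3, TGM1 and TGM3 were detected on too few OE33 arrays to pass without OE21. The counts inside and outside the complex, and those of groups that did not overlap, are therefore no test. The 5 members higher in OE33 in control cells, SCEL, ABCA12, EVPL, PPL and EMP1, lay outside the complex on 5 different chromosomes. On leaving out 1 array at a time, the members called lower numbered 21 to 23. Those called higher numbered 2 without the first or the third OE21 control array and at most 5 otherwise.

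The line comparison in siRNA cells used the 6 arrays not compared above, within the same fit. There 23 of the 34 members were lower in OE33 and 5 higher (limma, adjusted p under 0.05), where 25.2% of all genes tested were lower and 25.6% higher, and the members' median was -1.72 (-1.59 with 13 undetected members at their bound). Across the 34 members, the log2 differences in siRNA and in control cells had a Pearson correlation of 0.987, where it was 0.956 across all 12322 genes. Genes are not independent, and the same lines and probes underlie both. The sign was the same for 34 of 34 members, as it was for 84.4% of all genes, and 25 (73.5%) passed in the same direction in both, as did 40.7% of all genes. Members that no OE33 array detected passed the filter only through OE21, which favoured a negative sign in both comparisons beforehand. The shared signs and calls and the correlation are therefore no test of the list. IVL and CALML5 were called lower and DMKN higher in siRNA cells only, and ABCA12 higher in control cells only, although without the second OE33 control array it was called in siRNA cells (0.74, adjusted p = 0.0372) and not in control cells; the test of these differences is the interaction given below, in which no gene passed. PI3 was at least 158-fold lower and CALML3 at least 82.6-fold lower in OE33 siRNA cells, where neither was detected. The SPRR3 call in siRNA cells (-1.34, SE 0.45, adjusted p = 0.0279) ended without the third OE21 siRNA array (-0.84, adjusted p = 0.108), the first OE33 siRNA array (-1.21, adjusted p = 0.0848) or the third (-1.36, adjusted p = 0.0599). PPL (0.95, SE 0.35, adjusted p = 0.0391) lost its call without any of 5 arrays.

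Other genes of the same program that are not among the 40 were read from lists. Of all 12322 genes tested, 24.2% were lower in OE33 control cells and 25% higher. Of 9 measured further genes of the envelope and the differentiation complex, RPTN, KPRP, SPRR2B, SPRR2G and LCE3E were detected on 0 OE33 arrays. These, and SPRR2E, SPRR4 and CRCT1, detected on 1 OE33 array each, could pass the filter only through OE21. Their counts are therefore no test of the list. In OE33 control cells 7 of the 9 were lower and 0 higher. They included SPRR2E (-6.46, SE 0.38, adjusted p = 6e-08), SPRR2G (at least 20.1-fold lower), SPRR2F (-3.95, SE 0.74, adjusted p = 0.000912) and SPRR2B (at least 7.98-fold lower), all copies of the SPRR2 family, of which SPRR2E was detected on 1 OE33 control array. Barrier lipid genes divided, with 4 of 10 lower (among them ELOVL4, which elongates very long fatty acids, at least 8.4-fold, and the ceramide synthase CERS3, at least 4.89-fold) and 2 higher (FA2H, a fatty acid hydroxylase, at least 7.09-fold, and SMPD1, 1.10). Of 10 other proteases and inhibitors of cornification, 2 were lower (SPINK7 and ASPRV1) and 6 higher, led by CST6 (6.37, SE 0.34, adjusted p = 2.8e-08), a cystatin that inhibits cathepsins, and by the membrane-linked proteases PRSS8 (3.78) and ST14 (3.63) and the kallikrein KLK5 (3.10). CST6 was detected on 2 of 3 OE21 control arrays, so the size of its difference rests partly on signals near background. Among 12 suprabasal keratin and junction genes, 5 were lower, with PKP1 at least 50.8-fold and KRT13, the mucosal suprabasal keratin, at -5.21 (SE 0.51, adjusted p = 5e-06), and 2 were higher, JUP (2.10) and PKP3 (0.86). Among 13 transcription factors of differentiation, 7 were lower, with CEBPA (-2.24), ZNF750 (-2.06) and GRHL2 (-1.35) among the largest, and 3 higher, EHF (3.31), ELF3 (2.63) and GRHL1 (0.84). In these lists too, a gene detected in 1 line alone could pass the filter only there, so the counts are no test of the lists. Among such genes, ELOVL4, CERS3, NIPAL4, SDR9C7, SPINK7, ASPRV1 and PKP1 were detected on 0 OE33 arrays, and FA2H on 0 OE21 arrays.

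After STAT3 siRNA, no measured member passed in either line. In OE21, 0 of 34 members passed by limma, where 0% of 11179 genes did, and 2 had an unadjusted p under 0.05, where 11.3% of all genes did. LYPD3 was higher on the 3 siRNA arrays (10.19, 10.22 and 9.80) than on the 3 control arrays (9.47, 9.67 and 8.44), by 0.88 (SE 0.33, unadjusted p = 0.0332, adjusted p = 0.401). DMKN was lower on the siRNA arrays (9.23, 9.17 and 9.13) than on the control arrays (9.45, 9.55 and 9.84), at -0.44 (SE 0.15, unadjusted p = 0.0203, adjusted p = 0.357). The 2 other DMKN probes gave -0.37 (unadjusted p = 0.0408) and -0.16 (unadjusted p = 0.288). The groups did not overlap for these 2 and for PPL (-0.34), 3 of 34 members, where 16.9% of all genes had groups that did not overlap. The members' median was 0.10, with 14 below and 20 above 0, beside 0.00 over all genes, and without the second OE21 control array it was 0.50. Several intervals were wide: the 95% confidence interval was -2.26 to 2.23 for LCE3D, -0.98 to 3.32 for LY6D and -1.66 to 1.06 for SPRR3. Narrow ones included CSTA (-0.45 to 0.37), ANXA1 (-0.59 to 0.15) and CSTB (-0.18 to 0.59).

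**Figure D3:**
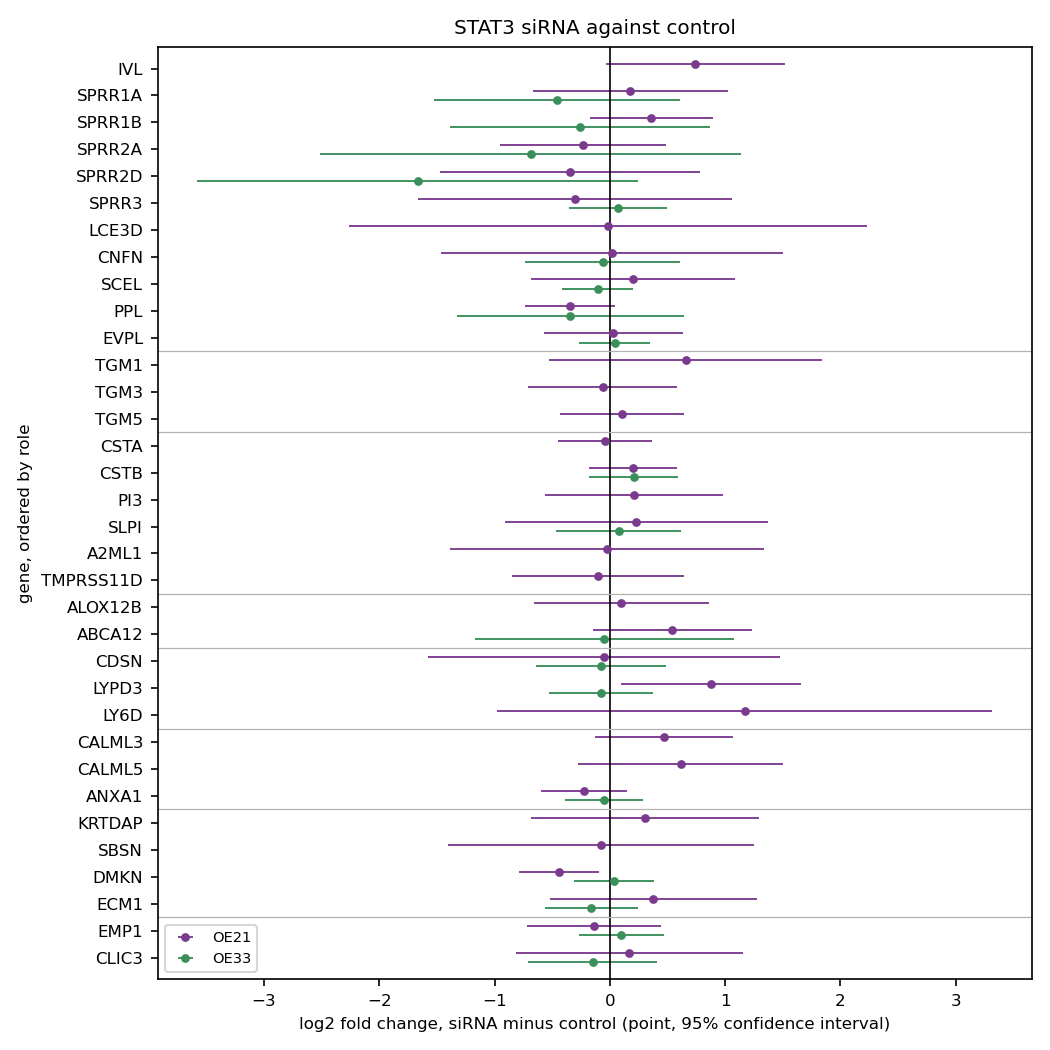
Log2 difference, STAT3 siRNA minus control, of each measured member (rows) in OE21 and, for the members tested there, in OE33, with bars for the 95% confidence interval. All intervals but those of LYPD3 and DMKN in OE21 include 0, and SPRR2D in OE33 lies farthest from it (-1.67).

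Within OE21 the members' levels were spread over the arrays in a pattern that crossed the siRNA label. Relative to each member's mean over the 6 OE21 arrays, the 34 members averaged 0.40 on the second control array and 0.40 on the third siRNA array, and -0.37 and -0.26 on the first and the third control arrays. The second control array was the highest of the 6 for 12 members (35.3%) and the lowest for 0. It was the highest for 15.2% of all genes tested in OE21 and the lowest for 12.7%. The first control array was the lowest for 13 members (38.2%, and 16.8% of all genes) and the third for 12 (35.3%, and 19.3% of all genes). LCE3D shows the spread: its 6.94 on the first control array and 10.34 on the third siRNA array differ by 3.40 log2 units. For 8 members (23.5%, where 3.55% of all genes did so) the 3 highest arrays were the second control, the second siRNA and the third siRNA array. These 8 were IVL, SPRR1A, SPRR1B, CSTA, CSTB, PI3, CALML5 and KRTDAP. For 12 members (35.3%, where 18.8% of all genes tested in OE21 did so) the 3 highest arrays were the second control, the third control and the third siRNA array. They were SPRR2A, SPRR2D, SPRR3, LCE3D, CNFN, SLPI, TMPRSS11D, CDSN, ANXA1, SBSN, ECM1 and EMP1. Of 9 measured further genes of the envelope and the differentiation complex, 9 had the same 3 highest arrays. LY6D and TGM1 had the opposite 3 highest, the first control and the first and second siRNA arrays, which was the pattern of 18.2% of all genes and of 7 of 7 squamous markers (KRT5, KRT14, KRT15, DSC3, DSG3, SOX2 and TRIM29). LY6D read 9.44, 7.66 and 6.92 on the OE21 control arrays and 9.73, 10.38 and 7.42 on the OE21 siRNA arrays. KRT15, a basal keratin, read 13.08, 9.74 and 10.29 on the OE21 control arrays and 12.25, 12.93 and 9.32 on the OE21 siRNA arrays. The 7 squamous markers averaged 9.66 to 10.93 on the OE21 control arrays and 9.50 to 10.99 on the OE21 siRNA arrays. Their part in the members' spread was not tested. The labels give the same array identifier to every array, and a slide effect was not tested.

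**Figure D4:**
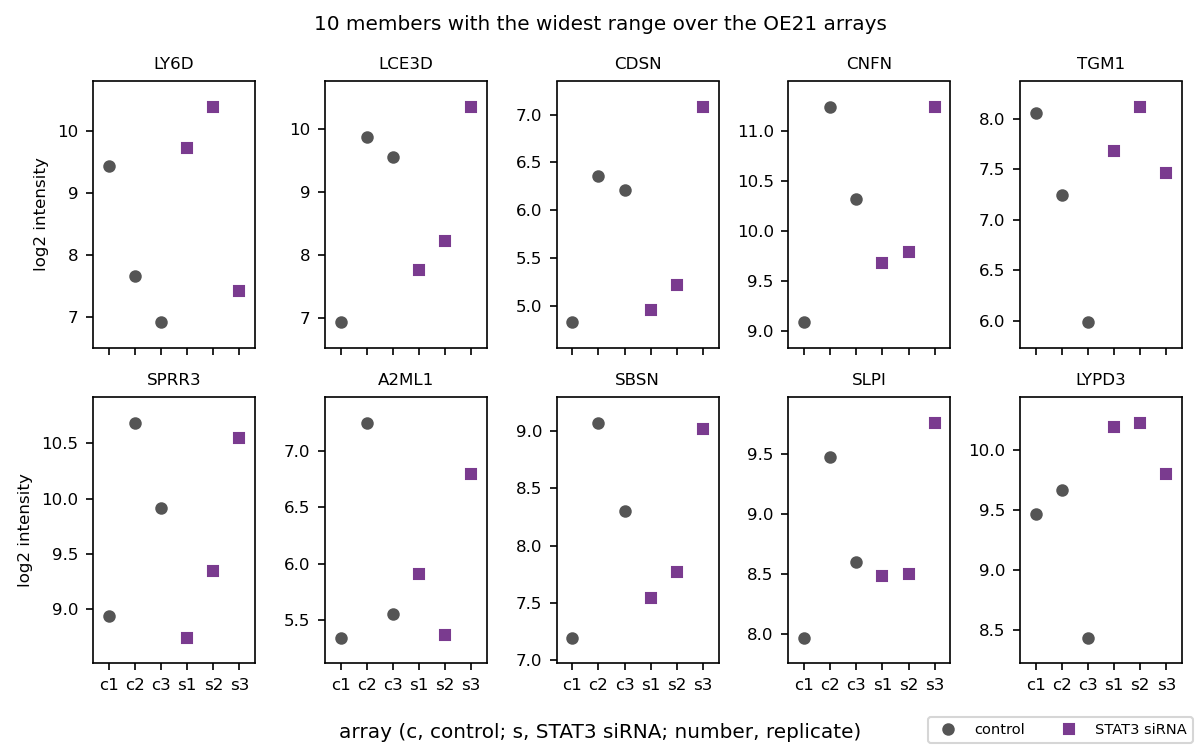
Levels (log2 intensity) on the 6 OE21 arrays, 1 point per array, for the 10 members with the widest range, each panel with its own axis. For LCE3D, CNFN and CDSN the second control, the third control and the third siRNA array lie above the other 3, and for LY6D they lie below.

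In OE33, 19 members could be tested after STAT3 siRNA. By limma 0 of the 19 passed, where 0% of 10634 genes did, and 0 had an unadjusted p under 0.05, where 2.75% of all genes did. The median was -0.08 over the 19, beside -0.01 over all genes. SPRR2D was the 1 member whose groups did not overlap, where 7.72% of all genes had such groups, with a difference of -1.67 (SE 0.82, unadjusted p = 0.0789, adjusted p = 0.991) and a 95% confidence interval of -3.58 to 0.25. That difference rests on the second control array, at 9.63 beside 6.15 and 6.64, and was -0.58 (unadjusted p = 0.0175, adjusted p = 0.962 by limma) without it. This array was the highest of the 6 OE33 arrays for 10 of 19 members (52.6%) and for 34.1% of all genes, and the lowest for 4 members (21.1%) and for 32.3% of all genes. It exceeded the highest of the other 5 by 2.44 for SPRR2A, 1.34 for SPRR1A, 1.28 for SPRR1B, 1.21 for PPL and 1.01 for ABCA12. CNFN, LYPD3, CSTB and EMP1 were lower there than on any other OE33 array. STAT3 was highest there as well. Without it the median of the members was 0.05, 0 members passed, and SPRR2D and ABCA12 (0.55, adjusted p = 0.962) had an unadjusted p under 0.05. SPRR2A moved from -0.69 to 0.31 and SPRR1B from -0.26 to 0.35, and neither had an unadjusted p under 0.05 with or without the array.

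**Figure D5:**
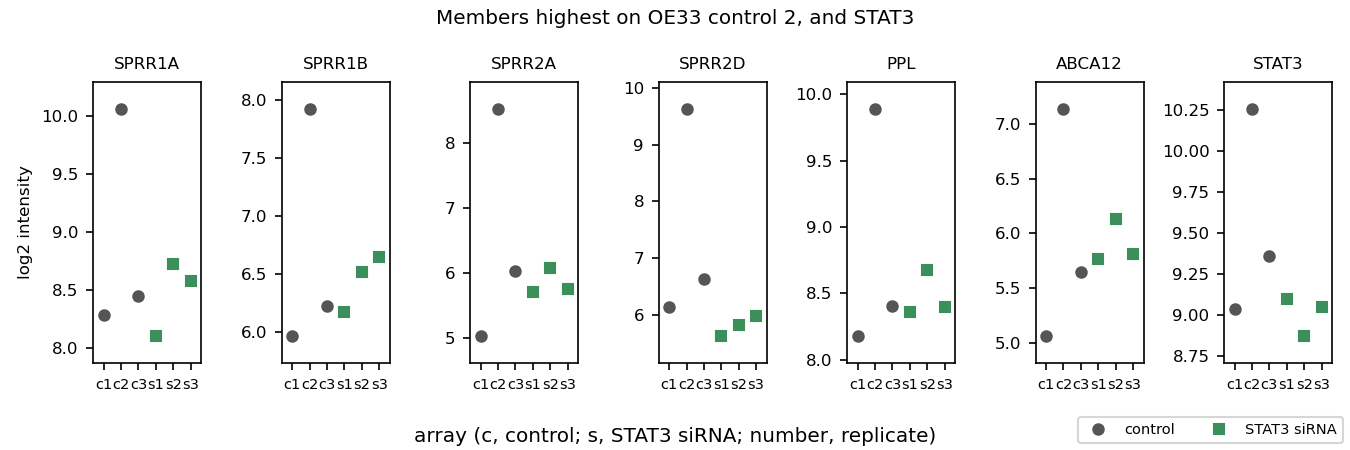
Levels (log2 intensity) on the 6 OE33 arrays, 1 point per array, for the 6 members that exceeded the other arrays by over 1 log2 unit on the second control array, and for STAT3, each panel with its own axis. The second control array stands above the other 5 by 1.01 (ABCA12) to 3.00 (SPRR2D) log2 units for these members.

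The siRNA effects of the lines were compared by the interaction term of the fit of 12 arrays. By limma 0 of 34 members passed, where 0% of 12322 genes did, and 3 had an unadjusted p under 0.05, where 6.73% of all genes did. They were CALML3 (-1.04, SE 0.39, unadjusted p = 0.0216, adjusted p = 0.703), LYPD3 (-0.95, SE 0.40, unadjusted p = 0.0369, adjusted p = 0.724) and DMKN (0.48, SE 0.21, unadjusted p = 0.0415, adjusted p = 0.731), each given as the OE33 effect minus the OE21 effect. CALML3 was detected on 1 of 6 OE33 arrays, so its value there rests on signals at or near background, and without the second OE33 control array it was -0.83 (unadjusted p = 0.0568, adjusted p = 0.733). The median was -0.12 over the members and -0.01 over all genes, and -0.57 without the second OE21 control array.

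The further lists also held 0 genes that passed after STAT3 siRNA in either line. In OE21 the smallest unadjusted p were those of BLMH, a protease that degrades filaggrin products (-0.65, SE 0.13, unadjusted p = 0.00158, adjusted p = 0.301), KRT1, the suprabasal epidermal keratin (0.80, SE 0.20, unadjusted p = 0.00549, adjusted p = 0.301), ABHD5, a lipase cofactor (-0.46, SE 0.12, unadjusted p = 0.00714, adjusted p = 0.301), and NIPAL4, a barrier lipid gene (1.14, SE 0.35, unadjusted p = 0.0143, adjusted p = 0.33). On the 3 siRNA arrays KRT1 read 5.37, 5.88 and 5.35, above 4.96, 4.71 and 4.52 on the control arrays. Those control values lay near the lowest detected signal, and 2 of the 3 control arrays detected KRT1. Of the 9 further envelope genes, 8 were below 0 and 1 above, with 0 at an unadjusted p under 0.05, the nearest being SPRR2B, RPTN and SPRR4 (-0.59, -0.39 and -0.27). Of all 11179 genes, 5645 were below 0 and 5534 above. The 9 shared their 3 highest OE21 arrays, the second and the third control and the third siRNA array, so their signs are not independent. In OE33 none of the 5 lists held a gene at an unadjusted p under 0.05.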

How the data were processed

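RNA of 2 cell lines in 4 groups of 3 was measured on Illumina HumanHT-12 arrays. RNA came from RNeasy Plus columns and was labelled as biotinylated cRNA, per the labels' protocols. The authors deposited, for each probe and array, an unnormalised intensity on the linear scale and its detection p-value. A second deposited table holds intensities normalised by the authors, and it served as an alternative. The sources used here do not state how that table and the detection p-values were made.

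The unnormalised intensities were processed with the neqc function of limma 3.58.1 (R 4.3.3), which took the background from the detection p-values, added an offset of 16 and quantile-normalised the 12 arrays. Of 47323 probes, 18034 to 19149 were detected on each array, and 30111 had 1 symbol in the platform annotation. The number of arrays sets the precision. A probe entered a fit when detected at p under 0.01 on at least 3 of its arrays, and the brightest probe over all arrays stood for a symbol. Line comparisons and the interaction used 1 fit of 12 arrays (8 residual degrees of freedom), and siRNA comparisons 1 fit per line. Tests were lmFit and eBayes, two-sided, with Benjamini-Hochberg adjustment over all genes tested and calls at adjusted p under 0.05. The smallest p that an exact permutation of 3 against 3 allows is 0.1, so none was used for single genes. For a gene that no array of a group detected, the text gives a bound (at least N-fold) in place of a fold, set by the lowest detected signals of that group's arrays. For LCE3D, LY6D and A2ML1 the fitted log2 difference stands beside the bound. The fits were tested on simulated data with noise independent between genes and arrays, so the array patterns seen in OE21 were not simulated.

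The members and lists were chosen with earlier results of these data known. All measured members are named between the lines. After siRNA, members are named at an unadjusted p under 0.05. Other lists are named by up to 4 called genes a direction between the lines and up to 3 by smallest p after siRNA. LCE3D, LY6D, SPRR3, SPRR2D, CSTA, ANXA1, CSTB and PPL in the siRNA comparisons, and the OE21 array patterns, were singled out after their values were seen. Replicate numbers are not known to pair the samples and were not in the main fits. Same-numbered control and siRNA arrays had deviations correlated at 0.389, -0.334 and 0.446 in OE21 and at 0.0664, 0.266 and 0.0914 in OE33. Those of different-numbered arrays ranged from -0.665 to 0.57 in OE21 and from -0.224 to 0.157 in OE33. Motifs were searched over the 250 bases before each RefSeq gene start. Alternatives changed background correction, normalisation, offset, filter, probe choice, array weights, arrays in the fit, the replicate block and each array in turn.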

Additional observations from a re-analysis of the deposited data

How the results depend on the processing

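In no alternative run did a member change direction in the line comparisons, nor STAT3 or a member at an unadjusted p under 0.05 in the others, and members called lower in OE33 control cells stayed within 1.5 times of the main count in every alternative. The number of members called after siRNA, or by the interaction, was within that range too. Named genes kept their side of the threshold in most alternatives, lost it in 29 cases and gained it in 18. The members' median line difference in control cells (-1.69) was -0.93 with no background correction, -0.91 on the authors' normalised values, -1.27 at an offset of 50, -1.30 with no filter, -2.02 with array weights and -2.69 with only the 6 arrays compared, and -1.94 to -1.62 without single arrays. In siRNA cells (-1.72) it was -0.96, -0.93, -1.23 and -1.34 under the first 4 of these, -2.17 with only 6 arrays, and -2.17 to -1.63 without single arrays. Members called higher in control cells (5) numbered 3 with only 6 arrays and 2 to 5 without single arrays. Members called lower in siRNA cells (23) numbered 14 under the stricter filter, which tests fewer of them. For all genes after STAT3 siRNA in OE21 (0 called), array weights called 96 lower and 174 higher, and a fit of 12 arrays called 7 and 5. Members at an unadjusted p under 0.05 in OE21 (2) numbered 1 with probes averaged, 8 with array weights and 0 to 6 without single arrays, and their median (0.10) was -0.069 to 0.50. In OE33 (0) they numbered 3 with array weights, 1 in the fit of 12 arrays and 0 to 2 without single arrays. For the interaction, array weights called 158 genes lower and 71 higher and gave 6 members at an unadjusted p under 0.05 (main 3, 0 to 6 without single arrays), and the median was -0.57 to 0.0012 without single arrays. The causes of these shifts were not tested. With the replicate number as a block, 1 member in OE33 had an unadjusted p under 0.05 and CALML5 was called lower in OE33 control cells (adjusted p = 0.0431). The number is not known to pair the samples. Groups of 3 arrays, 1 line per tumour type and signals near background in OE33 limit what these data can show.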
